A study of Mus musculus with 2 samples.

Results

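The thin filament of striated muscle was examined through 10 genes, read by 17 probe sets on each of 2 mouse expression arrays: the troponin C genes Tnnc1 and Tnnc2, the troponin I genes Tnni1 and Tnni2, the troponin T genes Tnnt1, Tnnt2 and Tnnt3, the tropomyosin gene Tpm2 and the striated actin genes Acta1 and Actc1. The genes were listed by family and all probe sets annotated to them were taken, out of 45037 non-control probe sets and 18193 named genes. One array held RNA from a pool of internal carotid arteries and the other from a pool of external carotid arteries, microdissected from ICR mouse embryos of stage E13.5. The design text gives 22 embryos for the vascular segments that were pooled, and the sources used here do not say whether each embryo contributed to both pools. No treatment or transgene was used. Each pool was hybridised to 1 array, so every value is a single measurement, there is no spread between animals, and no p-value is given.

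The thin filament is a helix of actin with tropomyosin lying along it and a troponin complex at regular intervals. Troponin C binds calcium, troponin I holds the filament in the off state, and troponin T anchors the complex to tropomyosin, so that calcium moves tropomyosin and lets myosin bind actin. Slow, fast and cardiac muscle use different troponin genes, but embryonic skeletal muscle also makes the cardiac actin Actc1 and the cardiac troponin T Tnnt2. Vascular smooth muscle contracts without troponin, through phosphorylation of myosin, and uses the actin gene Acta2 together with tropomyosins that include Tpm2.

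Troponins and striated actins were higher in the internal carotid pool. All 7 troponin genes and both actin genes were between 2.35-fold and 5.20-fold higher there by their brightest probe set, and the tropomyosin gene Tpm2 was 1.41-fold higher. The signal was higher on the internal carotid array at 17 of 17 probe sets. Of these, 2 were under both floors described below and 1 was under the external floor only. The share over all probe sets was not computed. A gene was called when the signals of the pools differed at least 2-fold, and 9 of the 10 genes were called, against 1.51% of the 12419 genes with a value that were called in that direction. Of the 17 probe sets 15 had a value and 13 were called, against 1.37% of all such probe sets. None of the 10 was called higher in the external carotid pool. On the log2 scale of external over internal signal the 10 genes had a median ratio of -1.96 and all genes a median of 0.06, all 10 ratios were below 0 against 43.7% of genes, and 43 of the 12419 genes had a ratio at or below the median of the 10. A bulk sample cannot tell fewer cells of a type from less RNA per cell.

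**Figure D1:**
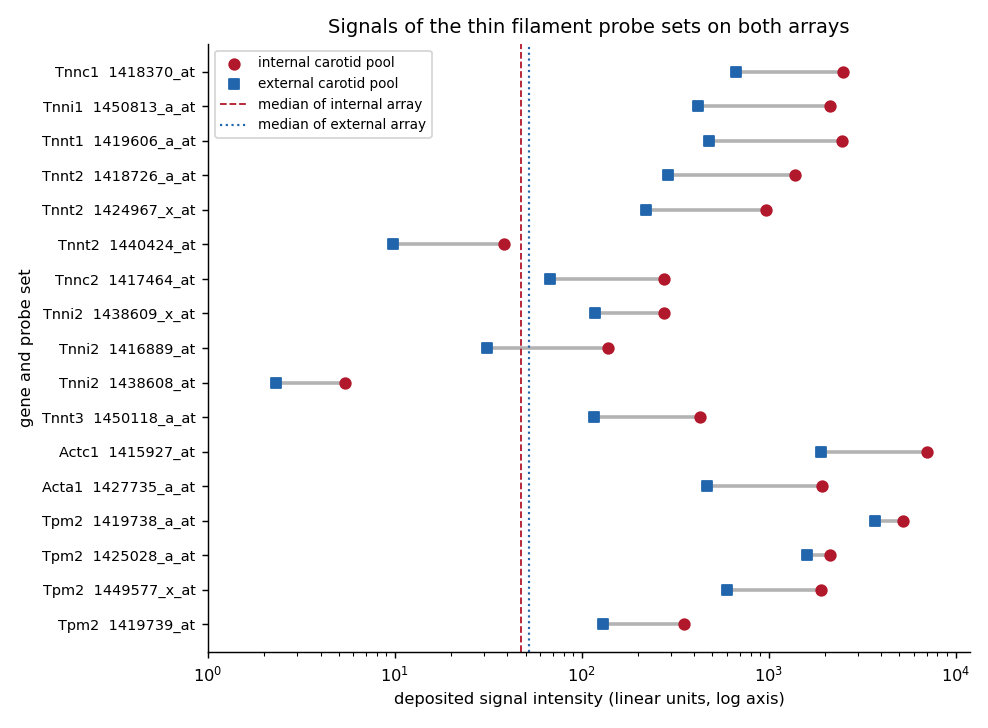
Deposited signal of each thin filament probe set (linear units on a log axis) in the internal carotid pool (red circles) and the external carotid pool (blue squares), with vertical lines at the median of each array, 47.5 and 52.3. The red circle lies to the right of the blue square for 17 of 17 probe sets, of which 2 are under both array medians. Signals of different probe sets are not comparable with each other.

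The yardsticks for these values came from the arrays themselves. The median signal over non-control probe sets was 47.5 for the internal and 52.3 for the external pool. It was used as a floor under which a signal was not used for a ratio. Summed signals of a list include signals under the floors. Where 1 signal was under its floor, that floor took its place and the difference is given as "at least" so many fold, and where both were under the floor no fold was given. The technical spread was taken from genes with several probe sets, as the pooled standard deviation of their log2 ratios around each gene's mean, over 4315 genes, and came to 0.34, so that a difference between the ratios of 2 genes has a spread of 0.48. It covers differences between probes on this pair of arrays and not between embryos or dissections. Both arrays gave signal weighted to the 3' end, with 3' over 5' signal ratios for Actb of 4.41 (internal) and 3.53 (external). For Gapdh these ratios were 8.39 (internal) and 7.09 (external). Bright genes stood somewhat lower than dim ones, and the 1395 genes with a mean signal of at least 1000, which include 6 of the 10 thin filament genes, had a median log2 ratio of -0.18. Among all genes, 187 were called higher in the internal and 267 in the external carotid pool, a split that became 281 and 181 after centring each array on its median, which shifts every log2 ratio by 0.14, 227 and 209 after quantile normalization, and 239 and 202 after loess.

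The striated actins form the backbone of the filament. Actc1, the cardiac alpha-actin that is also the main striated actin of embryonic skeletal muscle, had a signal of 7062 in the internal and 1915 in the external carotid pool at its single probe set, 1415927_at. The internal carotid value was 3.69-fold higher, a log2 ratio of -1.88. Acta1, the skeletal alpha-actin of mature fibres, had signals of 1932 and 466 at probe set 1427735_a_at, and stood 4.14-fold higher in the internal carotid pool (log2 ratio -2.05). The ratios of the cardiac and the skeletal actin differed by 0.17, which is under the spread of 0.48 for a difference. Both signals of both genes stood well above the floors, the lowest of them, Acta1 in the external carotid pool, at 8.92 times its floor.

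These actin genes lie on different chromosomes, Actc1 on chromosome 2 and Acta1 on chromosome 8, and their promoters are shown because of the family's windows at hand theirs alone held a CArG box, the 10-base element bound by serum response factor. Of the 10 genes, 8 matched the RefSeq promoter table for GRCm38.p6, which gave 10 windows of 300 bases, from 250 before to 50 after an annotated start. Tnni2 and Tnnt3 were not matched. Each sequence runs 5' to 3' on the strand of its gene, and capitals mark a CArG box, the E-box CAGCTG, the MCAT element CATTCC, the TATA box TATAAA or a MEF2 site, on either strand. The Actc1 window is chr2:114052826-114053125, minus strand, and the Acta1 window is chr8:123894726-123895025, minus strand.
Actc1 promoter: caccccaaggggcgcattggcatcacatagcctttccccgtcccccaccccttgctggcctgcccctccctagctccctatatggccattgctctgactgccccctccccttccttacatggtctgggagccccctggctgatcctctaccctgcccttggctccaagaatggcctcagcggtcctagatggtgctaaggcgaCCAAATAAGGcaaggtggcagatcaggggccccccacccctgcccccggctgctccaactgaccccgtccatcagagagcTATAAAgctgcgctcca
Acta1 promoter: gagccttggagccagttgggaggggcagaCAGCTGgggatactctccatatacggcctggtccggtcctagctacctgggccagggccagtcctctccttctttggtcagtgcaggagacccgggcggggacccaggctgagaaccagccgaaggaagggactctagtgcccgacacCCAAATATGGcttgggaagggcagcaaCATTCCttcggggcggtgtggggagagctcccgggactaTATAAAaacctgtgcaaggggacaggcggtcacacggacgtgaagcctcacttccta

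The Actc1 window held the CArG box CCAAATAAGG at positions -47 to -38 from its annotated start, and the Acta1 window held CCAAATATGG at -73 to -64. A CArG box was present in 1.63% of the 32851 promoter windows of that table. The Acta1 window also held CAGCTG at -221 to -216, CATTCC at -46 to -41 and TATAAA at -7 to -2. In the Actc1 window TATAAA lay at 34 to 39, after the annotated start. TATAAA was in 13.6% of all windows and in those of Actc1, Acta1 and Tnnt1, and CATTCC was in 14.7% of all windows and in those of Acta1, Tnnc1 and Tnnt2. No MEF2 site was found in the 10 windows, against 3.19% of all windows. A match is a run of letters and not a measured binding site.

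Tropomyosin stood apart from the actins and troponins by its brightest probe set, but not by every probe set. Tpm2, the beta-tropomyosin gene of slow skeletal and smooth muscle, was read by 4 probe sets, and they gave different answers. The brightest, 1419738_a_at, had signals of 5251 in the internal and 3725 in the external carotid pool, a log2 ratio of -0.50. Probe set 1425028_a_at read 2138 and 1603, with a ratio of -0.42. Both of these were within 2-fold.

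The other Tpm2 probe sets differed more between the pools. Probe set 1449577_x_at read 1913 and 599, so that the internal carotid signal was 3.19-fold higher (log2 ratio -1.67), and 1419739_at read 353 and 130, or 2.72-fold higher (log2 ratio -1.45). The 4 ratios spanned 1.26 on the log2 scale, with a standard deviation of 0.65 against the pooled 0.34, and 25 of the 346 genes with 4 probe sets measured on both arrays spanned at least as much. With the median over its probe sets Tpm2 had a log2 ratio of -0.97 and was still not called. The suffix of 1449577_x_at marks probes that can also bind other transcripts, while 1419739_at has no such suffix. The same limit holds for 1438609_x_at of Tnni2 and 1424967_x_at of Tnnt2.

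Tpm2 and Actc1 had almost the same mean signal over the arrays by their brightest probe sets, 4488 in both cases. The 231 other genes with a mean signal of at least 4000 had a median log2 ratio of -0.35, a lowest of -1.07 and a highest of 0.57. Of these 231 genes, 29 had a ratio at or below that of Tpm2 and 0 a ratio at or below that of Actc1. The brightest Tpm2 ratio was therefore within the range of other genes above that cutoff and the Actc1 ratio was outside it. This depends on the cutoff, since the myosin gene Myh3, with signals of 5772 and 849, fell under it and had a ratio of -2.77. After quantile normalization and loess the Tpm2 ratio stayed below 0, with -0.22 as its highest value over 9 processing choices.

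The Tpm2 window, chr4:43523505-43523804, minus strand, is shown for comparison with the actin windows. It held CAGCTG at -227 to -222 and none of the other capitalised motifs, and CAGCTG was in 16.3% of all windows.
Tpm2 promoter: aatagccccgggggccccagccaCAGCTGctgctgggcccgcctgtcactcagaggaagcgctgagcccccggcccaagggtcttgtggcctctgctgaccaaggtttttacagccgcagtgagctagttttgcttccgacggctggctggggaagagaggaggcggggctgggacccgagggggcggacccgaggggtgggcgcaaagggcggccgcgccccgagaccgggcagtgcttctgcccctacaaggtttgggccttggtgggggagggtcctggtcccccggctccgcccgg

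Troponin C is the calcium sensor of the filament and has a slow and cardiac gene and a fast gene. Tnnc1, the gene of slow skeletal muscle and heart, had signals of 2488 in the internal and 669 in the external carotid pool, and stood 3.72-fold higher in the internal carotid pool (log2 ratio -1.90). Tnnc2, the fast skeletal gene, had signals of 277 and 67.7, a 4.09-fold difference the same way (log2 ratio -2.03). The ratios differed by 0.14, under the spread of 0.48, so the slow and the fast troponin C genes could not be told apart by their ratio. The external carotid signal of Tnnc2 stood at 1.29 times its floor, the nearest to it of the 10 genes, and when each floor was raised to the 75th percentile its ratio became a bound of -0.85 and the call was lost.

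Troponin I is the inhibitory subunit. Tnni1, the slow skeletal gene, read 2136 in the internal and 417 in the external carotid pool and stood 5.12-fold higher in the internal carotid pool (log2 ratio -2.36). Tnni2, the fast skeletal gene, had 3 probe sets. The brightest, 1438609_x_at, read 275 and 117, so that the internal carotid signal was 2.35-fold higher (log2 ratio -1.23), and 1416889_at read 138 and 31.1. The latter external carotid signal was under the floor, which gave a bound of at least 2.63-fold (log2 bound -1.40).

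The third Tnni2 probe set, 1438608_at, read 5.4 and 2.3, under both floors, and gave no fold. The slow Tnni1 ratio minus the fast Tnni2 ratio was -1.12, or 2.34 times the spread of a difference. Among the 6 isoform pairs compared it was the widest, the next being at 1.03 times that spread. The size of this gap depended on the Tnni2 probe set, since 1416889_at gave only a bound, and a ratio of -2.15 when its deposited signals were used without a floor. The Tnni2 call was lost with the higher floor, at -0.84, and with a pseudocount added to each signal, at -0.93.

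Troponin T ties the complex to tropomyosin. Tnnt1, the slow skeletal gene, read 2482 in the internal and 477 in the external carotid pool and had the lowest ratio of the 10 genes, -2.38, or 5.20-fold higher in the internal carotid pool. Tnnt2, the cardiac gene, read 1391 and 289 at its brightest probe set, 1418726_a_at, which made it 4.81-fold higher there (log2 ratio -2.27). Its probe set 1424967_x_at read 971 and 220 with a ratio of -2.14, and 1440424_at read 38.5 and 9.8, under both floors. Tnnt3, the fast skeletal gene, read 429 and 116 and stood 3.70-fold higher in the internal carotid pool (log2 ratio -1.89).

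The 3 troponin T ratios lay close together. Tnnt2 was 0.11 above Tnnt1 and 0.38 below Tnnt3, both under the spread of 0.48, and Tnnt1 was 0.49 below Tnnt3, at 1.03 times that spread. The slow and cardiac troponin genes Tnnc1, Tnni1, Tnnt1 and Tnnt2 had a median log2 ratio of -2.31 and the fast genes Tnnc2, Tnni2 and Tnnt3 one of -1.89. The slow and cardiac median was below the fast one with each of 9 processing choices. Those choices reuse the same 2 arrays, so their agreement adds no replication. No spread was computed for a difference between these medians, so whether the isoform classes differ was not tested. The external carotid signals of the fast genes stood at 1.29 to 2.24 times the floor. Those of the slow and cardiac genes stood at 5.53 to 12.8 times the floor. With the higher floor and the pseudocount, which draw the ratios of dim genes towards 0, the fast median shrank to -0.85 and -1.43. The troponin C pair went the other way, with Tnnc1 at -1.90 and Tnnc2 at -2.03. Ordered by ratio, from the furthest towards the internal carotid pool, the genes were Tnnt1, Tnni1, Tnnt2, Acta1, Tnnc2, Tnnc1, Tnnt3, Actc1, Tnni2 and Tpm2, and only the steps from Actc1 to Tnni2, of 0.65, and from Tnni2 to Tpm2, of 0.74, exceeded the spread of a difference. The former step was under that spread after quantile normalization, at 0.35, and loess, at 0.32. The latter was under it with the median over probe sets and with the higher floor, at 0.35 in both, and with the pseudocount, at 0.44.

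**Figure D2:**
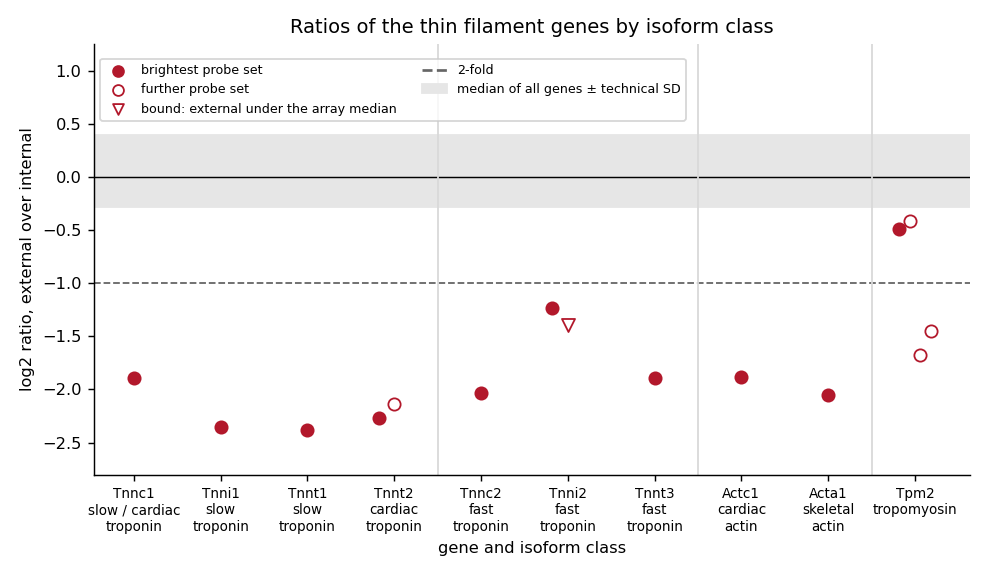
Log2 ratio of external over internal carotid signal for each thin filament gene, grouped by isoform class, with filled circles for the brightest probe set, open circles for further probe sets and an open triangle for a bound; the dashed line marks 2-fold and the grey band the median of all genes, 0.06, with the technical spread of 0.34 on either side. The slow, fast and cardiac troponins and both actins lie below the dashed line, from -2.38 to -1.23, while the Tpm2 probe sets fall on both sides of it.

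Troponin I and troponin T genes sit side by side in the genome, and the data covered both members of each such pair. By RefSeq gene order on GRCm38.p6, Tnni1 and Tnnt2 lie on chromosome 1 with 1 protein-coding gene, Lad1, between them, and Tnni2 and Tnnt3 lie on chromosome 7 with Lsp1 between them. Tnnt1 lies next to the cardiac troponin I gene Tnni3, also on chromosome 7, with 0 protein-coding genes between them. The slow Tnni1 and the cardiac Tnnt2 had ratios of -2.36 and -2.27, and the fast Tnni2 and Tnnt3 had ratios of -1.23 and -1.89. Tnni3 read 19.4 and 7.3, under both floors, so that no ratio could be set beside that of Tnnt1.

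The windows of the neighbours on chromosome 1 are shown because their genes had nearly the same ratio and both windows held the E-box CAGCTG, a sequence that myogenic factors of the MyoD family can bind. The Tnni1 window, chr1:135799171-135799470, plus strand, held it at -68 to -63. The Tnnt2 window, chr1:135836084-135836383, plus strand, held it at -223 to -218 and at -157 to -152, with CATTCC at -27 to -22. Both genes had a further window, which overlapped the one shown for Tnni1 and lay downstream for Tnnt2, where it held no CAGCTG. Of the 8 matched genes, 4 had this E-box in a window, namely Acta1, Tnni1, Tnnt2 and Tpm2. Among these, Tpm2 was not called and had a ratio of -0.50. The windows of Actc1, Tnnc1, Tnnc2 and Tnnt1 did not hold it, and Tnnt1 had the lowest ratio, -2.38. The pair shown was picked by its ratios, so whether this E-box goes with the ratio was not tested. The looser E-box CANNTG, which includes CAGCTG, was in all 10 windows of these genes and in 72.3% of all windows.
Tnni1 promoter: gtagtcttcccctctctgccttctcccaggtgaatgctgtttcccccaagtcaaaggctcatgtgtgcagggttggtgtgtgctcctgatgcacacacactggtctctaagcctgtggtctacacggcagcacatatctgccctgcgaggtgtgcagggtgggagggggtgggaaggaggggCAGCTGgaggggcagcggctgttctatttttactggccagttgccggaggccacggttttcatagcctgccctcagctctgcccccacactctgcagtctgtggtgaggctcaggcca
Tnnt2 promoter: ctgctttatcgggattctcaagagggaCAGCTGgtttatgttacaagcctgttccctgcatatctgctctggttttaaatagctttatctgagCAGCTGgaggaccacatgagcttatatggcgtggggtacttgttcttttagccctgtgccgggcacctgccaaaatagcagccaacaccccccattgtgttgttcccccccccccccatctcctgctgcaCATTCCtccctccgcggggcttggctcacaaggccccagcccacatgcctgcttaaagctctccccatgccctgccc

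**Figure D3:**
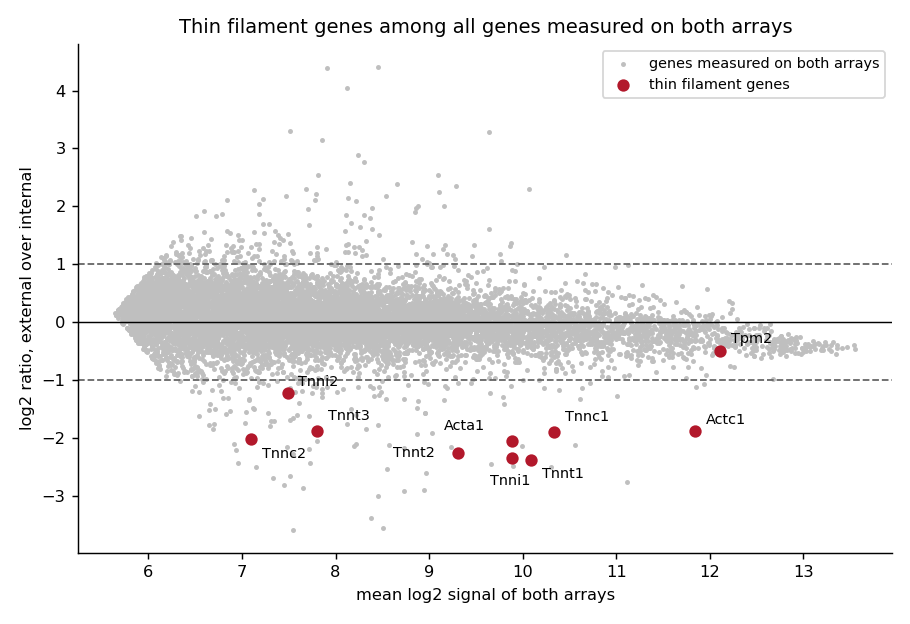
Log2 ratio of external over internal carotid signal against mean log2 signal for the genes measured on both arrays (grey points), with the 10 thin filament genes in red and dashed lines at 2-fold in either direction. All of them but Tpm2 lie below the lower dashed line, over a wide range of signal, and Tpm2 lies among other bright genes at -0.50.

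Other thin filament genes did not share these ratios as a group. Of 24 listed genes for further tropomyosins, actins, capping proteins and filament-length regulators, 20 had a value, 2 were called higher in the internal carotid pool (background 1.51%) and 0 in the external carotid pool (background 2.15%), and the median log2 ratio was -0.27. The called genes were Neb, the giant nebulin that spans the sarcomeric thin filament, with signals of 410 and 63.6 and a 6.45-fold difference, and Lmod3, a leiomodin that nucleates actin in skeletal muscle, with 117 and 24 and a difference of at least 2.23-fold. Xirp1, an actin-binding protein of striated muscle, read 97.6 and 43.9, with a bound of -0.90 that passed 2-fold with a lower floor or none, and after loess, quantile normalization or centring. Of the other 2 leiomodins, the smooth muscle Lmod1 had a log2 ratio of 0.49 and the cardiac and skeletal Lmod2 was under both floors. Further uncalled genes of the list were Tmod4 (-0.39), Tmod1 (-0.34), Cfl2 (-0.32) and Nrap (-0.30), and Nebl was under both floors.

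The tropomyosins other than Tpm2 were near equal between the pools. Tpm1, the alpha-tropomyosin gene, read 525 and 592 with a log2 ratio of 0.17, and -0.12 with the median over its probe sets. Tpm3, which serves slow muscle and non-muscle cells, read 5249 and 4295 with a ratio of -0.29, which turned to 0.004 after quantile normalization. Tpm4, a cytoskeletal tropomyosin, read 3332 and 3218 with a ratio of -0.05, which turned to 0.18 after quantile normalization and loess. The actins outside striated muscle were also within 2-fold. The smooth muscle actins Acta2 and Actg2 had log2 ratios of -0.45 and -0.24, and the cytoskeletal actins Actb and Actg1 had ratios of -0.50 and -0.25, of which Acta2 reached 0 after quantile normalization, and Actg1 turned to 0.17 after it and to 0.11 after loess.

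Most skeletal muscle markers moved with the thin filament genes. Of 15 listed markers 13 had a value and 10 were called as internal-high (background 1.51%), with a median log2 ratio of -1.78. Their summed signal was 5023 in the internal and 1215 in the external carotid pool, a 4.14-fold difference, beside 2.87-fold for the summed signal of the 10 thin filament genes and 4.07-fold without Tpm2. The called markers were the myogenic factors Myod1 (616 and 139) and Myog (620 and 143), the satellite cell factor Pax7 (186 and 54.1), the fusion genes Mymk (329 and 101) and Mymx (1235 and 202), the acetylcholine receptor genes Chrna1 (439 and 114) and Chrng (254 and 15.4), the calcium channel genes Ryr1 (546 and 74.5) and Cacna1s (108 and 44.5), and the cadherin gene Cdh15 (354 and 163). Of the uncalled markers, Ckm had a log2 ratio of -0.60, and a value of 0.49 at another probe set. Myf5 and Pax3 had bounds of -0.95 and -0.69. Myf6 (25.2 and 36.6) and Chrnd (14.3 and 3.8) were under both floors. The external carotid signal of Pax7 was close to the floor of 52.3, and another of its probe sets gave -0.84. No marker was at 0 on either array, and Myod1 and Myog were above the floor on the external carotid array too. The part of skeletal muscle cells in the thin filament ratios was not tested.

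Cardiac muscle markers were low in both pools and gave no such difference as a list. Of 12 listed markers 11 had a probe set of 1 gene, and their summed signals were 469 in the internal and 462 in the external carotid pool. These sums include signals under the floors, and the highest signal in them was 105. Near-equal sums therefore do not show equal expression. The atrial natriuretic peptide gene Nppa read 6.4 and 18.9, the atrial myosin light chain gene Myl7 10.3 and 7.0, the heart factor genes Gata4 17.4 and 34.8 and Nkx2-5 71.8 and 50.6, Ankrd1 3.0 and 10.2, and Tnni3 was as low as given above, so that 5 of the 11 were under both floors. The 1 called marker (background 1.51%) was the cardiac myosin gene Myh6, with 105 and 30.3 and a difference of at least 2-fold. That call was lost with a higher floor and with the pseudocount. The median of the 6 markers with a value was 0.03, and it turned below 0 with the median over probe sets, and after loess, quantile normalization or centring. With a lower floor or none it rose to 0.11, and with the pseudocount to 0.13. At the lower floor and none, 2 and 4 markers were called higher in the external carotid pool, beside 789 of 15868 and 1525 of 18193 genes. In the internal carotid pool 1 and 2 were called, beside 484 and 1108 of those genes. The cardiac list shares no member with the 10 thin filament genes studied, while its Tnni3 is also on the list of other thin filament genes. The log2 ratios of the cardiac isoforms Actc1, Tnnc1 and Tnnt2 were -1.88, -1.90 and -2.27.

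Genes of fast and slow fibres outside the thin filament were split. Of 10 fast fibre genes 7 had a value and 4 were called as internal-high (background 1.51%), with a median of -1.62 (-0.35 with the pseudocount). Called were the myosin gene Myh1 (at least 4.62-fold), the light chain genes Mylpf (5.64-fold) and Myl1 (3.62-fold) and the calcium pump gene Atp2a1 (3.06-fold). The adult fast genes Casq1 and Pvalb had log2 ratios of 0.24 and 0.64. Actn3 had a ratio of -0.88, and Myh2, Myh4 and Mybpc2 were under both floors. Of 8 slow fibre genes, all with a value, 4 were called as internal-high (background 1.51%). The median of the 8 was -1.20 (-0.63 without probe sets ending in _x_at or _s_at, and -1.91 with 5 called at a lower floor or none). Called were the slow myosin gene Myh7 (7.48-fold), Casq2 (3.39-fold), Myoz2 (5.39-fold) and Actn2 (5.79-fold). A place on this list does not mean that a gene is made in slow fibres alone. The slow light chain genes Myl2 and Myl3, which are also on the cardiac list, had ratios of 0.11 and -0.05. Atp2a2 had a ratio of -0.04 and Mybpc1 a bound of -0.63. The developmental myosin genes Myh3 and Myh8 were higher in the internal carotid pool by 6.80-fold and at least 7.02-fold.

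Markers of the vessel wall were measured in both pools. Of 8 smooth muscle markers 0 were called, the median log2 ratio was 0.34, and the summed signals were 13825 in the internal and 11864 in the external carotid pool. Without Acta2 the sums of the other 7 markers were 4344 and 4912, so the direction of the sum rests on that gene. Acta2, Actg2 and Lmod1 are on this list and on that of other thin filament genes. Of 6 endothelial markers 5 had a value and 0 were called, with a median of 0.07 that turned to -0.07 after centring, while Pecam1 was under both floors at 11.2 and 48.6. Sympathetic neuron markers went the other way, with 4 of 5 called higher in the external carotid pool (background 2.15%), namely Th, Dbh, Phox2a and Slc6a2. The summed signals of that list were 1427 in the internal and 5280 in the external carotid pool.

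**Figure D4:**
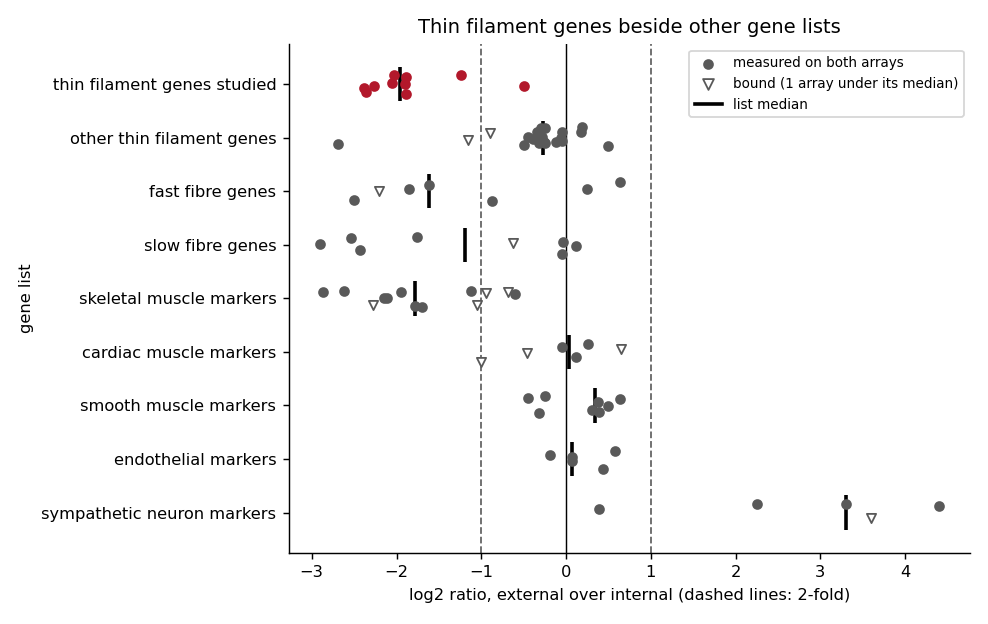
Log2 ratio of external over internal carotid signal for the genes of each list, with circles for genes measured on both arrays, open triangles for bounds, a black bar at each list median and dashed lines at 2-fold. The thin filament genes (red) and the skeletal muscle markers have medians of -1.96 and -1.78, while the cardiac, smooth muscle and endothelial medians lie between 0.03 and 0.34.

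The thin filament ratios kept their sign under every processing choice tried, while their size moved for some genes. Under 9 other choices of scaling, floor and probe set summary, Tnnc1, Tnni1, Tnnt1, Tnnt2, Tnnt3, Acta1 and Actc1 were called each time, Tnnc2 8 times and Tnni2 7 times, and Tpm2 was never called. The widest range was that of Tnnc2, whose log2 ratio ran from -2.17 to -0.85. Tpm2 ran from -0.97 to -0.22, Tnni2 from -1.40 to -0.84 and Tnnt3 from -2.03 to -1.48. Tnnt1 ran from -2.52 to -2.26 and Actc1 from -2.02 to -1.64.

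**Figure D5:**
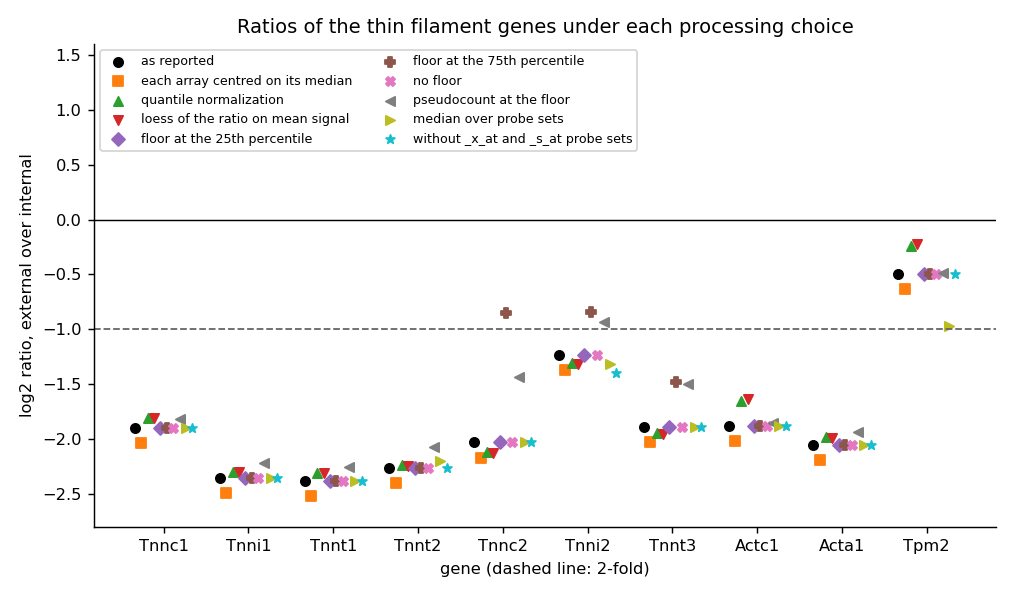
Log2 ratio of external over internal carotid signal for each thin filament gene as reported (black) and under 9 other processing choices (colours and symbols), with the dashed line at 2-fold. Points of 1 gene lie close together except for Tnnc2, Tnni2 and Tnnt3 with a higher floor or a pseudocount, and for Tpm2 with the median over probe sets.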

How the data were processed

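Total RNA of each pool was amplified in a pair of oligo-dT primed rounds and labelled with biotin, per the labels' protocols. The table deposited by the authors gives a linear signal intensity for each probe set. Per the submitters' processing notes GCOS 1.4 and MAS5 produced it. Their 2% trimmed mean was 150 on both arrays, so they were used as deposited. Of 45101 probe sets 64 are controls. Of the others, 34945 had 1 gene in the platform annotation, 932 several and 9160 were not listed, and symbols were updated by gene number through RefSeq (34741 matched). A gene was read from its probe set with the highest mean signal, and 12419 genes had a ratio or a bound. A bound pointing against the measured side gave no value.

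Members and lists were chosen with earlier results of these data known. Named were all members, the called genes of each list, the other tropomyosins and actins and Tnni3, and the 5 genes nearest the median of the members. Some further values were added after they were seen. The steps were tested on simulated data. Alternatives were centring, quantile normalization, loess (span 0.3), floors at the 25th and 75th percentile or none, a pseudocount equal to the floor, each gene's median over its probe sets, leaving out probe sets ending in _x_at or _s_at, thresholds of 1.5-fold and 3-fold, and counting probe sets. The work ran under Python 3.11.15 with matplotlib 3.10.9, statsmodels 0.14.6, scipy 1.17.1, pandas 2.3.3 and numpy 2.4.6. Precision is limited by the number of arrays.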

Additional observations from a re-analysis of the deposited data

How the results depend on the processing

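The count of 9 thin filament genes called higher in the internal carotid pool was 7 with a 75th percentile floor, 8 with the pseudocount and at 3-fold (background 0.572%), and 9 under the other settings, and 13 of 15 member probe sets with a value were called against 1.37% of probe sets. The median log2 ratio of the members ran from -2.10 to -1.83. The counts over all genes moved most. Higher in the internal and external carotid pool were 484 and 789 genes with a 25th percentile floor, 99 and 86 with a 75th percentile floor, 1108 and 1525 with no floor, 676 and 1166 at 1.5-fold, and 71 and 57 at 3-fold. Centring gave 281 internal-high genes, and the pseudocount gave 171 external-high genes. The other thin filament genes called higher in the internal carotid pool were 1 with a 75th percentile floor and at 3-fold, and 4 with no floor, which also gave 1 in the external carotid pool. Fewer genes have a value with a higher floor, and the cause of the other shifts was not tested. Signal near the floor limits Tnnc2 and Tnni2. No paired analysis was possible because each group has 1 array.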

Other observations

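A list of factors known to act on sarcomere gene promoters was set beside the thin filament genes. It leaves out the MyoD family, of which Myod1 and Myog had log2 ratios of -2.14 and -2.12, both called higher in the internal carotid pool. Of the 12 listed genes 11 had a probe set of 1 gene and 10 a value, 1 was called higher in the internal carotid pool (background 1.51%), 0 in the external carotid pool, and the median log2 ratio was -0.004, beside -1.96 for the thin filament genes. The called gene was Vgll2, a cofactor of TEAD proteins in skeletal muscle, with signals of 853 in the internal and 288 in the external carotid pool, a 2.96-fold difference. Srf, which binds the CArG box, read 359 and 384 with a ratio of 0.10, Mef2c read 655 and 459 with a ratio of -0.52, and Sox6, a repressor of slow fibre genes, read 199 and 301 with a ratio of 0.60. Over all their probe sets the ratios ran from -0.27 to 0.10 for Srf, from -0.70 to 0.96 for Mef2c, from -0.06 to 0.60 for Sox6 and from 0.20 to 1.06 for Nfatc1.

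The genes outside the thin filament list whose ratio lay nearest its median of -1.96 were Chrna1 at -1.94, Srpk3, a muscle protein kinase gene, at -1.94, the cell cycle inhibitor gene Cdkn1a at -1.91, Tceal7 at -2.05 and Myl1 at -1.86. Likeness here is the distance between log2 ratios over 2 arrays only.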
